A study of Homo sapiens with 12 samples.

Results

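The mitochondrial ribosome is built from mitochondrially encoded rRNAs and from proteins that are encoded in the nucleus, and most of those protein genes carry symbols that start with MRPL or MRPS. Every row of the deposited count table whose symbol was MRPL or MRPS followed by a number and, at most, 1 letter from A to C was taken, which gave 78 of 24302 features. The rule reads symbols alone, but it was set with earlier results of these data known. 49 of the symbols were MRPL and 29 were MRPS, and 51 of the proteins belong to the large subunit, since MRPS18A and MRPS30 sit there. The other 27 were counted as small subunit by their symbol. Among these, MRPS36 is named KGD4 in RefSeq, after the ketoglutarate dehydrogenase complex, and it was not called in WT against GFP (-0.12 ± 0.11 on the log2 scale), except with the trend of fold change with GC content removed (0.57). All 78 genes passed the filter on low counts, with 14792 features tested.

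RNA was measured in KYSE150, an established human cell line of esophageal squamous carcinoma, in 4 groups of 3 libraries. GFP cells carried green fluorescent protein alone. WT cells carried GFP-TFAP2β, a fusion to TFAP2β, which is an AP-2 family transcription factor encoded by TFAP2B. Mut_IDR3 and ΔIDR3 cells carried the same fusion in which IDR3, a disordered segment of the protein, was mutated or deleted, and the series title describes these mutants as deficient in liquid-liquid phase separation. All groups share the cell line, the GFP tag and the culture medium, so each comparison describes overexpressed protein in 1 line. The sources used here do not give the promoter of the constructs, the time after their introduction or the number of clones.

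The mitoribosome translates the few mRNAs of mitochondrial DNA, which encode core subunits of the respiratory chain and the ATP synthase. Its large subunit forms peptide bonds and is attached to the inner membrane, and its small subunit binds the mRNA and decodes it. Many of its proteins have counterparts in bacterial ribosomes and others occur only in mitochondria, and their mRNAs are made in the nucleus, translated in the cytosol and the proteins imported. Squamous carcinoma cells, like other dividing cells, express the whole set.

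Total counts per library ran from 30652851 (Mut_IDR3 replicate 1) to 43464956 (WT replicate 3). TFAP2B, the gene of the added protein, was at a mean of 0.124 counts per 1000000 (CPM) in GFP, 280.3 in WT, 702 in Mut_IDR3 and 704 in ΔIDR3. The mutants thus held more TFAP2B RNA than WT, by 1.32 (Mut_IDR3) and 1.33 (ΔIDR3) on the log2 scale, and for every comparison of a mutant with WT the change in IDR3 and this difference in RNA level cannot be told apart. All 9 markers of squamous epithelium were detected, led by KRT5, a keratin of basal cells, at a mean of 3302 CPM. Their summed level moved with the groups. It was 5927 to 6183 CPM in GFP, 7677 to 8959 in WT, 6032 to 6177 in Mut_IDR3 and 5173 to 5433 in ΔIDR3. In WT against GFP 5 of the 9 were called higher and 2 lower, 55.6% and 22.2%, beside 27.7% and 27.1% of all features. The 7 fibroblast markers summed to 2.61 to 3.68 CPM in GFP, 5.34 to 6.56 in WT, 3.75 to 4.47 in Mut_IDR3 and 4.27 to 5.35 in ΔIDR3, nearly all from COL1A1, which was higher in WT than in GFP by 0.85 on the log2 scale, adjusted p = 0.000882. The 5 leukocyte markers summed to 0.182 to 0.485 CPM and the 4 endothelial ones to 0.387 to 1.80 CPM over all libraries. PTPRC (leukocytes), PECAM1 and KDR (both endothelium) had 0 counts, and CDH5, also endothelial, had a mean of 0.582 CPM in GFP and 0 counts in WT, where it was called lower. What these markers contribute to the results was not tested. The labels number the replicates but do not say that they were separate cultures, so p-values measure the spread between these libraries, which may be technical. The value after ± beside a fold change is its standard error. In bulk RNA, fewer cells of a type and less RNA per cell cannot be told apart.

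Mitoribosomal protein mRNAs were abundant in every group. Their mean level over the 12 libraries, in CPM after trimmed-mean (TMM) scaling of library sizes, ran from 13.0 (MRPL1) to 318 (MRPS18B), with a median of 73.5 over the 78 genes. Their transcripts were short, with a median of 1430.5 nucleotides against 3039 over the 12724 tested features with a transcript model. Per kilobase of transcript the members had a median of 54.0 CPM, and all of those features had a median of 7.56 CPM.

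The order per kilobase was led by MRPS24 of the small subunit at 256 CPM per kb and by MRPL12, a protein of the stalk that recruits translation factors, at 252 CPM per kb. MRPS34, MRPS18B and MRPL20 followed at 235, 207 and 198 CPM per kb. MRPS24 and MRPL12 share exon sequence on the same strand with URGCP-MRPS24 and AC139530.2, so part of their counts could belong to those genes. At the other end stood MRPS25 (14.2), MRPL50 (13.2), MRPS33 (9.88), MRPL1 (8.71) and MRPL42 (4.12 CPM per kb). The value of MRPL42 rests on an annotated transcript of 15582 nucleotides, and its level not divided by length was 64.2 CPM, near the median of the set.

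More mitoribosomal genes were higher than lower in cells with GFP-TFAP2β. In WT against GFP, 34 of 78 members were higher and 13 lower at an adjusted p under 0.05 by edgeR's quasi-likelihood F test with Benjamini-Hochberg adjustment, and 31 did not pass. Over all tested features 27.7% were called higher and 27.1% lower, against 43.6% and 16.7% of the members. The median log2 fold change of the members was 0.15, beside -0.01 over all features, and it was 0.17 with median-ratio and 0.13 with upper-quartile scaling. The changes were small: the largest rise was 0.62 and the largest fall -1.16 on the log2 scale. In 44 of the 78 the libraries of WT and GFP did not overlap (56.4%), against 59.4% of all features.

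Large-subunit genes, 51 of the 78 members, made up most of the rises. Of these 51 genes 28 were higher and 9 lower, 54.9% and 17.6% (median log2 fold change 0.19). Of 27 genes of the small subunit 6 were higher and 4 lower, 22.2% and 14.8% (median 0.06). Over all features 27.7% were higher and 27.1% lower. The median GC content of the transcripts also differed, at 50.81% for the large subunit and 47.32% for the small. Whether the subunits differed beyond their GC content was not tested.

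**Figure D1:**
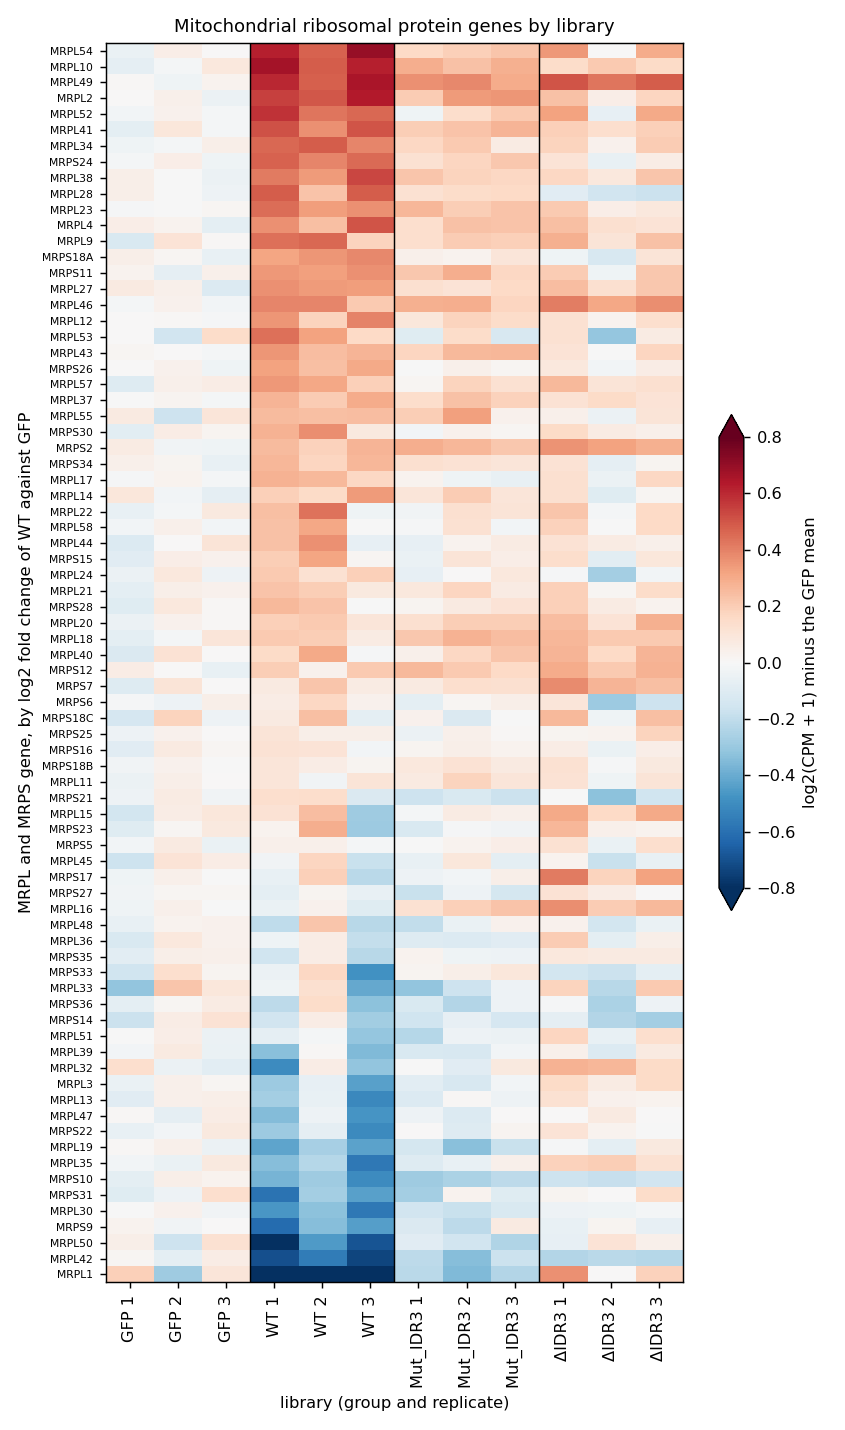
Level of each of the 78 genes (rows, ordered by the fold change of WT against GFP) in each of the 12 libraries (columns), as log2(CPM + 1) minus the mean of the 3 GFP libraries. The upper rows are red and the lower rows blue in the 3 WT libraries, with paler colours in Mut_IDR3 and ΔIDR3, and WT replicate 3 is bluer than WT replicates 1 and 2 in the middle rows.

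MRPL54, a large-subunit protein found only in mitochondria (chromosome 19, 3762664 to 3768575, plus strand, GRCh38 with GENCODE 29), had the largest rise. It was at 26.6, 28.6 and 27.6 CPM in the GFP libraries, 43.0, 38.6 and 45.3 in WT, 30.9, 31.6 and 32.3 in Mut_IDR3 and 35.4, 27.6 and 34.1 in ΔIDR3. All WT libraries lay above all others. The log2 fold change of WT against GFP was 0.62 ± 0.09 (adjusted p = 5.03e-05).

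MRPL10, at the base of the stalk (chromosome 17, 47823272 to 47831534, minus strand), was at 58.3, 60.5 and 65.1 CPM in GFP and 97.9, 86.1 and 94.9 CPM in WT. In Mut_IDR3 it was at 75.1, 72.1 and 74.9 CPM and in ΔIDR3 at 67.8, 71.0 and 68.3 CPM. WT stood highest, the mutants lay between, and no library of a mutant reached into WT or GFP. The log2 fold change, WT against GFP, was 0.60 ± 0.06 (adjusted p = 1.35e-06).

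The other stalk proteins did not move alike. MRPL12, which binds translation factors at the tip of the stalk, was at 236, 236 and 233 CPM in GFP and 301, 266 and 309 in WT, with no overlap, and changed on the log2 scale by 0.31 ± 0.06 (adjusted p = 0.000234). MRPL11, which lies beside MRPL10 on the stalk base, was at 96.1, 103 and 99.7 CPM in GFP and 106, 97.5 and 107 in WT, and the ranges overlapped. Its log2 fold change was 0.06 ± 0.06 (adjusted p = 0.433), and the difference between these genes was not tested.

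MRPL49 (chromosome 11, 65122183 to 65127371, plus strand) had the largest rise of the 78 in each mutant and also rose in WT. Its levels were 71.4, 69.5 and 72.3 CPM in GFP, 108, 99.2 and 112 in WT, 91.6, 93.2 and 87.5 in Mut_IDR3 and 101, 96.1 and 99.9 in ΔIDR3. Every library with a TFAP2β construct lay above every GFP library. Its log2 fold changes against GFP were 0.59 ± 0.06 in WT (adjusted p = 5.94e-07), 0.35 ± 0.06 in Mut_IDR3 (adjusted p = 0.000849) and 0.48 ± 0.06 in ΔIDR3 (adjusted p = 2.29e-05). These values share the GFP libraries. MRPL49 overlaps exons of FAU and SYVN1 on the opposite strand, and whether strand was used in the counting is not stated, so reads of those genes cannot be told apart from its own.

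MRPL2, a protein near the peptidyl transferase centre (chromosome 6, 43054029 to 43059806, minus strand), was at 43.6, 44.8 and 42.0 CPM in GFP and 63.8, 61.6 and 68.0 CPM in WT. The groups were apart, and the log2 fold change was 0.57 ± 0.07 (adjusted p = 8.29e-06). It overlaps exons of KLC4 on the opposite strand. MRPL52, of the large subunit, rose by 0.50 (adjusted p = 0.00034) and MRPL41, also of the large subunit, by 0.47 (adjusted p = 8.19e-06) on the log2 scale. Of the small subunit, MRPS24 rose by 0.44 (adjusted p = 5.11e-06) and MRPS34 by 0.24 (adjusted p = 0.00153). MRPS12, a protein of the decoding centre, had 0.15 (adjusted p = 0.0406), and its WT libraries at 112, 99.9 and 113 CPM overlapped GFP at 102, 97.6 and 93.6 CPM. Its call was lost without GFP replicate 2 or 3 or without WT replicate 1 or 3.

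MRPL1 fell the furthest. It is the protein of the mobile stalk by which tRNAs leave the ribosome (chromosome 4, 77862520 to 77952790, plus strand). The GFP libraries were at 17.4, 12.3 and 16.2 CPM and the WT libraries at 6.45, 7.10 and 6.98 CPM, while Mut_IDR3 had 12.9, 11.6 and 12.7 and ΔIDR3 19.7, 15.2 and 17.3 CPM. WT lay below every other library, Mut_IDR3 overlapped the lowest GFP library and ΔIDR3 overlapped the higher GFP libraries. WT was 2.23-fold lower than GFP, a log2 fold change of -1.16 ± 0.14 (adjusted p = 4.17e-06).

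MRPL42, found only in mitochondria (chromosome 12, 93467488 to 93516213, plus strand), was at 78.1, 73.1 and 80.4 CPM in GFP, 47.0, 52.0 and 46.0 in WT, 66.7, 60.7 and 68.5 in Mut_IDR3 and 65.3, 66.2 and 65.8 in ΔIDR3. WT was lowest and both mutants lay between WT and GFP with no overlap. The log2 fold change of WT against GFP was -0.68 ± 0.07 (adjusted p = 9.4e-07). MRPL50, of the large subunit (chromosome 9, 101387633 to 101398614, minus strand), was at 51.1, 44.0 and 54.1 CPM in GFP and 27.8, 35.9 and 30.3 CPM in WT. Mut_IDR3 at 46.5, 44.4 and 41.7 and ΔIDR3 at 47.2, 53.5 and 51.0 CPM overlapped GFP, and the log2 fold change of WT against GFP was -0.67 ± 0.10 (adjusted p = 4.62e-05).

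Among the other members that fell in WT were MRPS9 of the small-subunit head (-0.47 ± 0.08), MRPL30 of the large subunit (-0.46 ± 0.06) and MRPS31 of the small subunit (-0.45 ± 0.10, all log2 fold changes). Their adjusted p were 0.000232, 1.19e-05 and 0.0018. MRPS31 was at 26.5, 27.6 and 31.4 CPM in GFP and 18.5, 23.4 and 20.7 CPM in WT, without overlap. MRPL3 and MRPS22, both known from inherited disorders of mitochondrial translation, had log2 fold changes of -0.26 and -0.29 (adjusted p = 0.00799 and 0.0126). MRPS22, MRPS9 and MRPL30 share exon sequence with other genes, COPB2 among them for MRPS22. The call of MRPS22 was lost without GFP replicate 3 or without WT replicate 3.

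**Figure D2:**
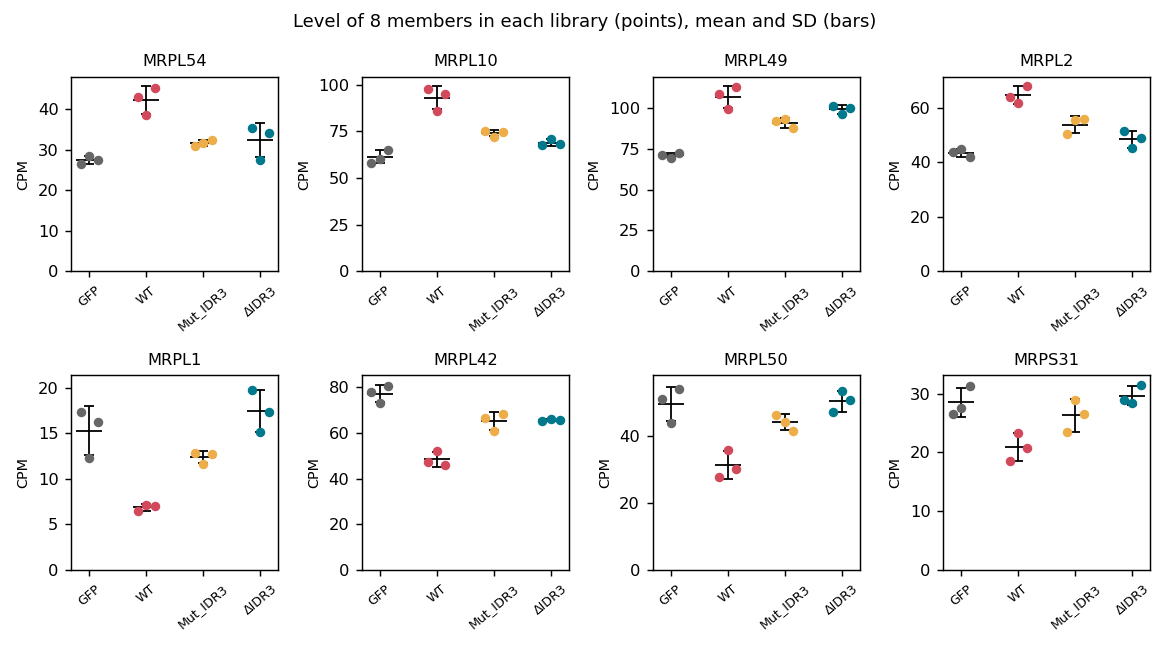
CPM of 8 members in each library (points, on linear axes from 0), with the mean and SD of each group of 3 (lines and bars). WT stands highest for MRPL54, MRPL10, MRPL49 and MRPL2 (upper row) and lowest for MRPL1, MRPL42, MRPL50 and MRPS31 (lower row), where both mutants lie nearer to GFP than WT does.

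Several landmark proteins did not pass the test in WT. MRPL45, which holds the tunnel exit to the inner membrane, had a mean of 69.2 ± 6.96 CPM in GFP and 68.8 ± 8.46 in WT (SD, n = 3), with a log2 fold change of -0.01 ± 0.09. MRPL58, a peptidyl-tRNA hydrolase that became a ribosomal protein, was at 47.0 ± 1.21 and 53.6 ± 5.98 CPM (log2 fold change 0.19 ± 0.08). MRPL44, MRPS16 and MRPL36 had log2 fold changes of 0.19 ± 0.09, 0.07 ± 0.06 and -0.06 ± 0.09. MRPL44 and MRPS16 are also known from inherited disorders, and MRPL36 is one of the smallest proteins of the large subunit. With the trend of fold change with GC content removed, MRPL44 (0.35) and MRPL36 (-0.21) were called.

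The MRPS18 paralogues, 3 genes for related proteins, differed in level and in their calls. MRPS18B, the most abundant member per library, was at 299.8, 314 and 305 CPM in GFP and 327, 318 and 311 CPM in WT, and the log2 fold change was 0.06 ± 0.05 (adjusted p = 0.292). MRPS18C was at 27.1, 33.8 and 28.9 CPM in GFP and 31.4, 35.4 and 28.2 CPM in WT, and its log2 fold change was 0.08 ± 0.11 (adjusted p = 0.565). MRPS18A, the paralogue of the large subunit, was at 59.7, 58.1 and 55.1 CPM in GFP and 71.9, 74.0 and 75.5 CPM in WT. WT lay above GFP without overlap for MRPS18A, and the log2 fold change was 0.36 ± 0.07 (adjusted p = 0.00031). With the GC trend removed MRPS18C was called at 0.75 and MRPS18B at -0.15, while MRPS18A, at 0.05, was not. MRPS18C overlaps exons of ABRAXAS1, and MRPS18A of RSPH9, on the opposite strand. Whether the paralogues differed from each other in their response was not tested.

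The direction of change followed the GC content of the transcript. Of the 26 members with the lowest GC content (35.0 to 46.4%), 1 was higher and 12 were lower in WT than in GFP, with a median log2 fold change of -0.23. Of the 26 in the middle 10 were higher and 1 lower (median 0.08), and of the 26 with the highest GC content (52.8 to 71.9%) 23 were higher and 0 lower (median 0.33). Across the 78 genes, which are not independent replicates and come from the same 6 libraries, Spearman's rho of fold change with GC content was 0.79. Over the 12724 tested features with a GC value it was 0.52, so the trend was not confined to ribosomal genes. In Mut_IDR3 against GFP rho was 0.77 over the members and 0.44 over all, and in ΔIDR3 against GFP 0.30 and 0.20. The trend moved with the groups, so a change in GC-rich genes and a GC-dependent difference between sets of libraries cannot be told apart.

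When the trend of each library with GC content was removed, 20 members were called higher and 10 lower in WT against GFP, beside 23.4% and 23.8% of all features. Only 15 of the 47 members called before kept a call in the same direction, 3 were called in the opposite direction and 12 others were newly called. MRPL49 (log2 fold change 0.36), MRPL10 (0.35), MRPL2 (0.30), MRPL52 (0.30) and MRPL54 (0.28) were still called higher. MRPL1 (-0.53), MRPS9 (-0.38), MRPS22 (-0.34) and MRPL30 (-0.16) were still called lower. MRPL42 (-0.01), MRPL50 (0.03) and MRPS31 (0.13) no longer were, nor were MRPL12 (-0.01), MRPL28 (0.07), MRPS18A (0.05), MRPS2 (-0.09), MRPS34 (-0.09) and MRPL3 (0.08). The rises of MRPL41 (0.14) and MRPS24 (0.10) also lost their calls. MRPL19, of the large subunit, turned from -0.38 to a called 0.29, and MRPS12 from 0.15 to a called -0.19. The largest of the 12 new calls were rises of MRPS18C (0.75) and MRPL22, of the large subunit (0.73, against 0.23 before). MRPL44 (0.35) was also newly called higher, and MRPS18B (-0.15), MRPL16 (-0.20) and MRPL36 (-0.21) lower.

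**Figure D3:**
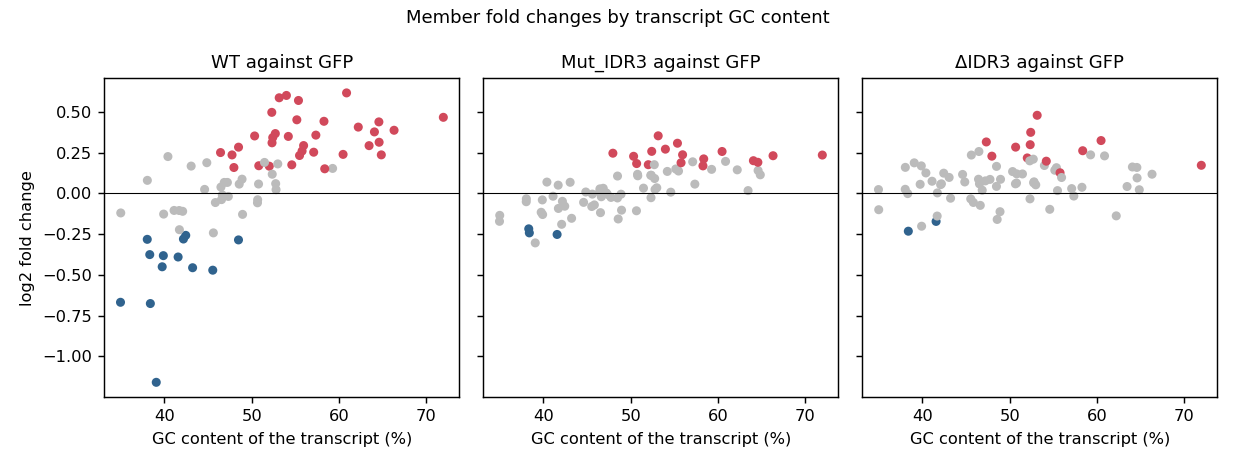
log2 fold change of each member (points, vertical axis) against the GC content of its transcript in percent (horizontal axis), for WT, Mut_IDR3 and ΔIDR3 against GFP, with called rises in red, called falls in blue and the rest in grey. In WT all 13 falls lie at or below 48.5% GC and 23 of the 26 genes from 52.8% up rose, and the trend is weakest in ΔIDR3, where rho was 0.30.

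Promoter sequence was read for 70 members that matched a RefSeq window (GRCh38.p14) of 250 bases before and 50 after the start of transcription. Motifs were searched on both strands, and they may overlap each other. The letters CCGGAAG, bound by GABPA and other ETS factors, occurred in 29 of 70 member windows (41.4%), against 10.7% of all 27305 windows and 16.9% of the 12411 windows of genes with counts. The long YY1 motif occurred in 10 (14.3%), against 0.916% of all windows and 1.72% of those of genes with counts. The AP-2 letters GCCNNNGGC, the type of site that TFAP2β binds, occurred in 15 (21.4%), against 23.0% and 30.7%. The SP letters GGGCGG were in 61.4% of member windows and 65.1% of those with counts, and the palindromic NRF1 motif in 1.43% and 2.08%. A match is a description of letters and not a bound site.

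The 120 bases before the start are printed for 2 members that rose in WT and 2 that fell, as examples only. Examples of this kind cannot show whether the letters go with the direction of change. These members were picked after the values were seen, among the windows whose stretch holds no annotated exon. With the GC trend removed none of them was called in WT against GFP. Their log2 fold changes were then 0.05 (MRPS18A), 0.07 (MRPL28), 0.13 (MRPS31) and 0.03 (MRPL50), so rose and fell refer to the main fit. Capitals mark the motif letters found, on either strand, and each stretch is written 5′ to 3′ on the strand of its gene. MRPS18A (rose; chr6:43687792-43687911, minus strand) holds an SP and an ETS match, MRPL28 (rose; chr16:370539-370658, minus strand) an SP match, MRPS31 (fell; chr13:40771191-40771310, minus strand) 1 AP-2, 1 ETS and 3 SP matches, and MRPL50 (fell; chr9:101398619-101398738, minus strand) none of the searched letters in this stretch. The RefSeq start of MRPL28 lies inside the longer GENCODE 29 gene, so its stretch is intronic there.
MRPS18A: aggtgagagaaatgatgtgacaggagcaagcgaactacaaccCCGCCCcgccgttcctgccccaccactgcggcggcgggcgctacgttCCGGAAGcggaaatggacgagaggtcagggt
MRPL28: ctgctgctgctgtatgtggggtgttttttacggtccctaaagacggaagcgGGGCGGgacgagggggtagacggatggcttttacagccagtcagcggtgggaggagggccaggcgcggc
MRPS31: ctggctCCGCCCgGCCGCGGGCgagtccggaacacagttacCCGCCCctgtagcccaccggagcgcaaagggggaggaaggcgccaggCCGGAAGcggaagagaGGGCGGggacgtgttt
MRPL50: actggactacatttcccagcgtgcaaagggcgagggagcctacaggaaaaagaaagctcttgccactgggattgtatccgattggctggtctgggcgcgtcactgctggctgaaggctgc

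The calls in WT against GFP were also set beside the letters in each window. Of the 15 members with GCCNNNGGC, 8 were higher and 1, MRPS31, lower (53.3% and 6.67%, median log2 fold change 0.17). With the GC trend removed MRPS31 was at 0.13 and not called. Of the 55 without these letters, 22 were higher and 10 lower (40% and 18.2%, median 0.09). With the ETS letters 12 of 29 were higher and 6 lower (41.4% and 20.7%, median 0.08). Without them 18 of 41 were higher and 5 lower (43.9% and 12.2%, median 0.16). Over all features 27.7% were higher and 27.1% lower. These splits were not tested against each other.

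The members also lay close to other genes. 29 of the 78 overlap exons of another gene on the opposite strand and 16 on the same strand, among them MRPS12, MRPS7, MRPL42, MRPS16, MRPL11, MRPL19, MRPL32, MRPL44 and MRPS27, and for these reads of the other gene cannot be told apart. 17 of the 78 (21.8%) started within 1000 bp head to head with another protein-coding gene, against 7.38% of 19951 protein-coding genes in GENCODE 29. Those 19951 include genes that did not pass the filter on low counts, and the share among tested genes was not taken. MRPL46 and MRPS11 face each other at 34 bp and so share their upstream sequence. MRPL46 was at 28.0, 29.1 and 27.9 CPM in GFP and 37.5, 37.4 and 32.9 CPM in WT, and MRPS11 at 47.7, 44.5 and 48.2 and 59.7, 59.0 and 60.5 CPM. Both rose in WT without overlap, with log2 fold changes of 0.34 ± 0.07 (adjusted p = 0.00115) and 0.35 ± 0.07 (adjusted p = 0.000889). MRPL46 shares exon sequence on the same strand with AC013489.1, and with the GC trend removed its rise, at 0.14, was not called. MRPS11, named here for its shared promoter, was chosen after its values were seen.

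Fewer members were called in each mutant against GFP than in WT against GFP, and calls over all features dropped as well. Of all features 27.7% were higher and 27.1% lower in WT, 11.2% and 9.85% in Mut_IDR3, and 15.6% and 13.4% in ΔIDR3. The mutants also held more TFAP2B RNA than WT, and what the change in IDR3 contributes to this drop was not tested. In Mut_IDR3 against GFP 17 members were higher and 3 lower, 21.8% and 3.85% of 78, against 11.2% and 9.85% of all features. The median log2 fold change was 0.03 over the members and -0.01 over all features. With any 1 library left out the rises numbered between 8 (without GFP replicate 3) and 11 (without Mut_IDR3 replicate 3), and the falls 1 without GFP replicate 1 or 3 or Mut_IDR3 replicate 2. The libraries did not overlap for 34 members (43.6%), against 43.5% of all features. After the GC trend was removed 3 members were higher and 1 lower, beside 7.78% and 6.92% of all features, and 2 of the 20 members called before kept their call.

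In ΔIDR3 against GFP 12 members were higher and 2 lower, 15.4% and 2.56%, against 15.6% and 13.4% of all features. The share of rises was thus near the background. The median log2 fold change was 0.09, against -0.02 over all features. The rises numbered 6 without ΔIDR3 replicate 1 and 7 without ΔIDR3 replicate 3 or GFP replicate 1. The falls numbered 0 without GFP replicate 3 and 1 without GFP replicate 1 or 2 or ΔIDR3 replicate 2 or 3. The libraries did not overlap for 28 members (35.9%), against 47.0% of all features. Without the GC trend 12 were higher and 3 lower, beside 15.4% and 16.2% of all features, and of the 14 members called before 8 kept their call while 7 others were newly called. Mut_IDR3, ΔIDR3 and WT are all set against the same 3 GFP libraries, so the 3 comparisons are not independent.

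**Figure D4:**
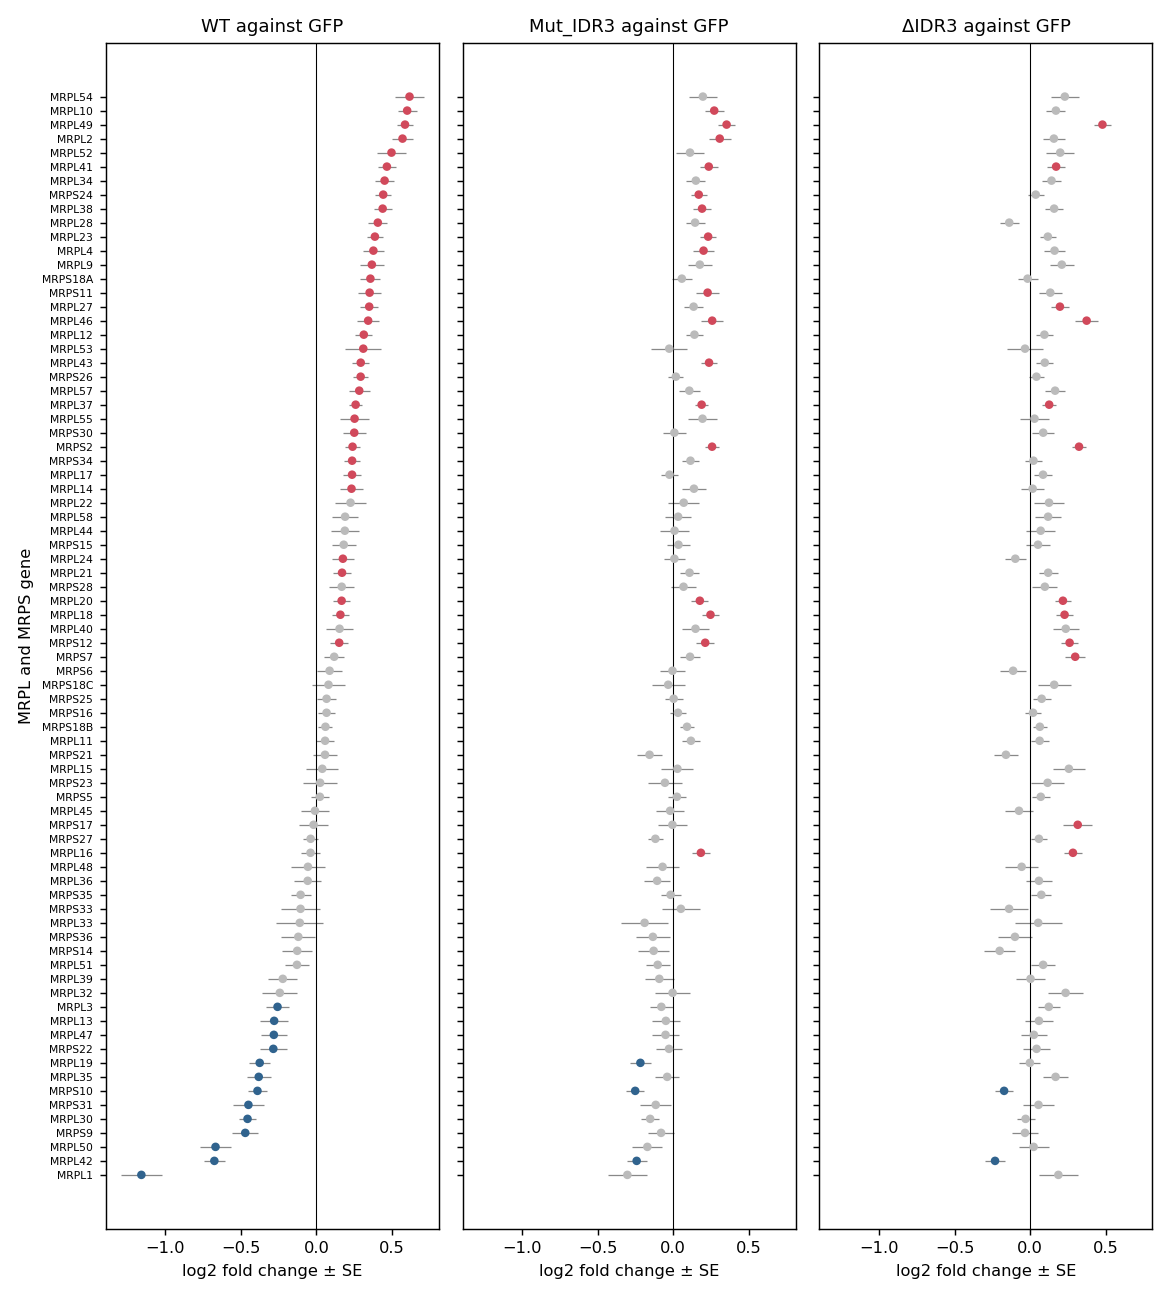
log2 fold change against GFP with its SE (bars) for each member, in the order of the WT values, with called rises in red, called falls in blue and the rest in grey. The spread is widest in WT, from -1.16 to 0.62, and both mutants lie closer to 0.

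Besides MRPL49, a few members were higher than GFP in both mutants. MRPS2, a small-subunit protein near the mRNA exit, was at 168, 158 and 157 CPM in GFP, 192, 183 and 194 in WT, 196, 193 and 186 in Mut_IDR3 and 206, 201 and 196 in ΔIDR3. Every library with a TFAP2β construct lay above every GFP library. Its log2 fold changes against GFP were 0.24 ± 0.05 in WT, 0.26 ± 0.05 in Mut_IDR3 and 0.32 ± 0.05 in ΔIDR3, with adjusted p of 0.000598, 0.00249 and 0.000182. Once the GC trend was removed only the ΔIDR3 call of MRPS2 stayed (0.25). MRPS2 overlaps exons of C9orf116 on the opposite strand.

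MRPL46 was at 34.7, 34.9 and 32.1 CPM in Mut_IDR3 and 37.9, 35.4 and 36.9 CPM in ΔIDR3, above its GFP libraries in both. Its log2 fold changes were 0.26 ± 0.07 (adjusted p = 0.0247), and 0.37 ± 0.07 (adjusted p = 0.00171), in that order. The Mut_IDR3 call was lost without any 1 of the GFP libraries and without Mut_IDR3 replicate 1 or 2. Its head-to-head neighbour MRPS11 had 0.23 (adjusted p = 0.0419) in Mut_IDR3 and 0.13 (adjusted p = 0.197) in ΔIDR3. MRPL42, which fell in WT, also fell in Mut_IDR3 by 0.24 and in ΔIDR3 by 0.23 on the log2 scale (adjusted p = 0.0196 and 0.0175). Both of these calls were lost without GFP replicate 1 or 3, and the Mut_IDR3 call also without Mut_IDR3 replicate 2. With the GC trend removed neither call of MRPL42 stayed, and of the mutant calls of MRPL46 that in ΔIDR3 did (0.27).

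Some small rises were called in ΔIDR3 and not in WT. MRPL16, beside the tRNA sites of the large subunit, was at 65.4, 69.1 and 66.9 CPM in GFP, 64.6, 68.8 and 62.7 in WT, 73.2, 76.7 and 78.8 in Mut_IDR3 and 87.2, 77.6 and 80.4 in ΔIDR3. WT overlapped GFP and both mutants lay above them. ΔIDR3 against GFP gave 0.28 ± 0.06 (adjusted p = 0.003), and against WT 0.32 ± 0.06 (adjusted p = 0.000425). Mut_IDR3 against WT gave 0.22 ± 0.06 (adjusted p = 0.00846). MRPL16 was thus higher in each mutant than in WT, and both calls stayed with the GC trend removed.

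MRPS17, a small-subunit protein that binds the rRNA, was at 34.7, 36.6 and 35.5 CPM in GFP, 34.2, 40.8 and 30.5 in WT, 34.5, 35.1 and 36.8 in Mut_IDR3 and 47.9, 40.4 and 44.7 in ΔIDR3. ΔIDR3 lay above GFP and Mut_IDR3 and overlapped the highest WT library by a little. ΔIDR3 against GFP gave 0.32 ± 0.10 (adjusted p = 0.0242), a call that was lost without ΔIDR3 replicate 1 or 3 and without any 1 of the GFP libraries. MRPS17 shares exon sequence on the same strand with NIPSNAP2, whose reads could be counted with it. MRPS7, of the small-subunit head, was at a mean of 102 ± 7.50 CPM in GFP and 126 ± 6.43 in ΔIDR3 (SD, n = 3), and the log2 fold change was 0.30 ± 0.06 (adjusted p = 0.00289).

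Both mutants were also set against WT directly, with the same 3 WT libraries in each comparison. In Mut_IDR3 against WT 10 members were higher and 21 lower, 12.8% and 26.9%, against 23.2% and 20.9% of all features. The median log2 fold change was -0.06, beside 0.03 over all features. Without WT replicate 2 the number of rises was 18, and without WT replicate 1 the falls numbered 14. After the GC trend was removed 8 were higher and 18 lower, beside 20.2% and 20.5% of all features, and 14 of the 31 members called before kept their call.

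In ΔIDR3 against WT 19 members were higher and 24 lower, 24.4% and 30.8%, against 27.2% and 25.0% of all features, so these shares were near the background. In either direction 52.3% of all features were called. The libraries did not overlap for 40 members (51.3%), against 55.6% of all features. Without the GC trend 15 members were higher and 19 lower, beside 23.7% and 24.8% of all features. Of the 43 called before 16 then kept their call, and 2 were called in the opposite direction. The median was -0.04, beside 0.03 over all features, and it was 0.01 without WT replicate 2. The spread between WT libraries bears on all of these counts. The median deviation of the members from the GFP mean, in log2(CPM + 1), was 0.17 and 0.19 in WT replicates 1 and 2, and 0.02 in WT replicate 3.

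MRPL1 had the largest difference between a mutant and WT. Mut_IDR3 against WT gave a log2 fold change of 0.86 ± 0.14 (adjusted p = 0.000133), and ΔIDR3 against WT 1.35 ± 0.14 (adjusted p = 1.11e-06), a 2.54-fold higher level. Both calls remained with the GC trend removed, at 0.47 and 0.86. MRPL50 was higher than in WT by 0.50 in Mut_IDR3 and 0.69 in ΔIDR3 (adjusted p = 0.000997 and 3.9e-05). MRPS9 was higher by 0.39 and 0.44 (adjusted p = 0.00169 and 0.000495). Once the GC trend was removed MRPS9 stayed called in both, and MRPL50 in neither.

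MRPL35, of the large subunit, was at 66.1, 64.5 and 70.8 CPM in GFP, 52.7, 57.2 and 44.8 in WT, 62.4, 64.4 and 69.1 in Mut_IDR3 and 76.4, 77.1 and 72.9 in ΔIDR3. WT lay below the other groups without overlap, and ΔIDR3 lay above all of them. ΔIDR3 against WT gave 0.55 ± 0.08 (adjusted p = 4.28e-05), and with the GC trend removed it was 0.10 and not called. MRPL32, a large-subunit protein that is cut by a protease after import before it joins the ribosome, was higher in ΔIDR3 than in WT by 0.48 (adjusted p = 0.0028).

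Of the members that were lower than in WT, MRPL54 had a log2 fold change of -0.42 ± 0.09 in Mut_IDR3 (adjusted p = 0.00196) and -0.39 ± 0.09 in ΔIDR3 (adjusted p = 0.00269). MRPL10 had -0.33 ± 0.06 (adjusted p = 0.000567) and -0.43 ± 0.06 (adjusted p = 3.72e-05). MRPS18A had -0.30 ± 0.07 (adjusted p = 0.00193) and -0.37 ± 0.07 (adjusted p = 0.00024), and its means in Mut_IDR3 and ΔIDR3 were 59.9 and 57.0 CPM beside 57.6 in GFP. With the GC trend removed MRPL10 stayed called in both, MRPL54 in Mut_IDR3 but not in ΔIDR3 (-0.13), and MRPS18A in ΔIDR3 but not in Mut_IDR3 (-0.15). MRPL49 and MRPL46 differed from this pattern: in ΔIDR3 against WT they had -0.11 ± 0.06 and 0.03 ± 0.07 and did not pass (adjusted p = 0.119 and 0.748).

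MRPL28, a large-subunit protein with a bacterial counterpart (chromosome 16, 366969 to 371289, minus strand), separated the groups in a graded order. It was at 216, 180.1 and 215 CPM in WT, 167, 169.8 and 172 in Mut_IDR3, 158, 153 and 149 in GFP and 144, 138 and 136 in ΔIDR3. No group overlapped its neighbour. Against GFP the log2 fold changes were 0.41 ± 0.06 in WT (adjusted p = 6e-05), 0.14 ± 0.06 in Mut_IDR3 (adjusted p = 0.117) and -0.14 ± 0.06 in ΔIDR3 (adjusted p = 0.115), so the mutants did not pass. After the GC trend was removed ΔIDR3 was called lower than GFP, at -0.20, while WT (0.07) was not called. It shares exon sequence on the same strand with TMEM8A.

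Few members told the mutants apart. In Mut_IDR3 against ΔIDR3 1 member was higher and 3 lower, 1.28% and 3.85%, against 5.54% and 5.24% of all features, with a median log2 fold change of -0.05. MRPL28 was higher in Mut_IDR3, with 0.28 ± 0.06 (adjusted p = 0.011), and with the GC trend removed it stayed called at 0.21. MRPL1 (-0.49 ± 0.13, adjusted p = 0.0274), MRPS17 (-0.32 ± 0.10, adjusted p = 0.0472) and MRPS27, an RNA-binding protein of the small subunit (-0.18 ± 0.05, adjusted p = 0.0423), were lower. These 3 calls did not hold with single libraries left out: MRPL1 lost its call without any 1 library but ΔIDR3 replicate 2, MRPS17 without any 1 of the 6, and MRPS27 without any 1 but Mut_IDR3 replicate 2. The number of lower calls was then between 0 and 1. Without the GC trend 1 member was higher and 5 lower, beside 7.31% and 6.83% of all features.

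Summed over the 78 genes, the level was 6875 ± 137 CPM in GFP, 7500 ± 232 in WT, 7181 ± 116 in Mut_IDR3 and 7325 ± 316 in ΔIDR3 (mean ± SD, n = 3). The WT libraries, at 7235 to 7667 CPM, lay above the GFP libraries, at 6730 to 7001 CPM, while ΔIDR3, from 6979 CPM, overlapped GFP. The order depended on the denominator. As a share of all counts the members took 0.690 to 0.707% in GFP and 0.689 to 0.742% in WT, and as a share of counts outside mitochondrially encoded mRNAs 0.769 to 0.792% in GFP and 0.734 to 0.787% in WT. By those shares WT overlapped GFP. Mut_IDR3 at 0.715 to 0.727% and ΔIDR3 at 0.716 to 0.757% of all counts lay above every GFP library. Of counts outside mitochondrially encoded mRNAs Mut_IDR3 had 0.780 to 0.796% and ΔIDR3 0.776 to 0.820%, and both overlapped GFP.

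The mRNAs that mitoribosomes translate took a smaller share of counts in every group with a TFAP2β construct. The 13 mitochondrially encoded mRNAs took 9.92 to 10.7% of counts in GFP, 5.38 to 6.09% in WT, 8.20 to 8.63% in Mut_IDR3 and 7.67 to 7.79% in ΔIDR3. WT lay below both mutants, which lay below GFP, without overlap. In WT against GFP 12 of 13 were lower and 1 higher, with a median log2 fold change of -0.91. These were 92.3% and 7.69%, beside 27.1% and 27.7% of all features. MT-CO3, of cytochrome c oxidase, fell from 9812 to 4205 CPM on average, a log2 change of -1.22 ± 0.07 (adjusted p = 2.63e-09), and MT-CYB, of complex III, had -1.15 ± 0.06 (adjusted p = 2.22e-09). In Mut_IDR3 against GFP 5 were lower and 1 higher (38.5% and 7.69%), beside 9.85% and 11.2% of all features. In ΔIDR3 against GFP 7 were lower and 1 higher (53.8% and 7.69%), beside 13.4% and 15.6% of all features.

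**Figure D5:**
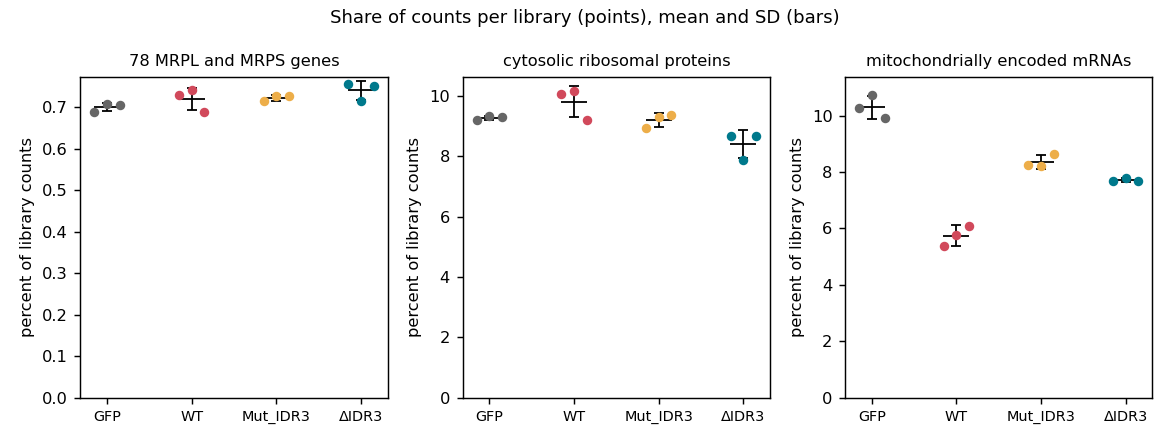
Percent of each library's counts in the 78 mitoribosomal genes, in cytosolic ribosomal protein genes and in mitochondrially encoded mRNAs (points, on linear axes from 0), with the mean and SD of each group of 3. The mitochondrially encoded share drops from about 10.3% in GFP to 5.75% in WT, while the mitoribosomal share lies between 0.689 and 0.757% in all 12 libraries.

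The cytosolic ribosome gave a similar split in WT and another in the mutants. Of 82 tested cytosolic ribosomal protein genes 35 were higher and 10 lower in WT against GFP (median log2 fold change 0.12). The 78 mitochondrial ones had 34 and 13. The cytosolic shares were 42.7% and 12.2%, beside 27.7% and 27.1% of all features. In ΔIDR3 against GFP 1 was higher and 12 were lower (1.22% and 14.6%, median -0.14), beside 15.6% and 13.4% of all features. The mitochondrial genes there had 12 higher and 2 lower (15.4% and 2.56%, median 0.09). The cytosolic falls and the mitochondrial rises were thus each near the background share. In Mut_IDR3 against GFP 3 cytosolic genes were higher and 0 lower (3.66% and 0%, median -0.03), beside 11.2% and 9.85% of all features. The difference between the gene sets was not tested. For these genes, the mitochondrially encoded mRNAs and the lists below, values with the GC trend removed are not given here. The trend ran over all 12724 tested features with a GC value (rho 0.52 in WT against GFP). How far it bears on the changes of these genes was not tested.

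Mitoribosomal proteins that carry other symbols, a list of 5, moved in both directions. PTCD3, an RNA-binding protein of the small subunit, fell in WT from a mean of 86.1 to 48.8 CPM, and the log2 fold change was -0.82 ± 0.06 (adjusted p = 5.92e-08). AURKAIP1, of the small subunit, rose by 0.49 (adjusted p = 1.48e-05), and GADD45GIP1, of the large subunit, by 0.41 (adjusted p = 4.94e-05). PTCD3 was also lower than GFP in Mut_IDR3 (-0.44, adjusted p = 0.000368) and in ΔIDR3 (-0.29, adjusted p = 0.00286).

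Of 30 genes for mitoribosome assembly and rRNA maturation 13 were higher and 7 lower in WT against GFP, 43.3% and 23.3% beside 27.7% and 27.1% of all features, with a median of 0.07. FASTKD2, which binds the large rRNA, fell from 31.5 to 14.2 CPM, a log2 change of -1.15 ± 0.10 (adjusted p = 1.73e-07), and GTPBP10, a GTPase of large-subunit assembly, had -0.89 ± 0.10 (adjusted p = 1.72e-06). TRMT10C, of mitochondrial RNase P, fell by 0.87 (adjusted p = 6.4e-06) on the log2 scale. ERAL1, which binds the small rRNA, rose by 0.39 (adjusted p = 2.05e-05). In Mut_IDR3 against GFP 8 were higher and 2 lower, 26.7% and 6.67% beside 11.2% and 9.85% of all features. In ΔIDR3 against GFP 9 were higher and 1 lower, 30% and 3.33% beside 15.6% and 13.4%.

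Of 20 mitochondrial translation factors 11 were lower in WT and 2 higher, with a median log2 fold change of -0.23, beside 27.1% and 27.7% of all features. MTIF2, an initiation factor, fell from 58.5 to 25.9 CPM, a log2 change of -1.17 ± 0.08 (adjusted p = 1.91e-08). LRPPRC, which stabilises mitochondrial mRNAs, fell from 192 to 87.9 CPM, a log2 change of -1.13 ± 0.09 (adjusted p = 1.56e-07). GFM2, the recycling factor, had -0.56 (adjusted p = 7.35e-06), and TUFM, the elongation factor that brings tRNAs, rose by 0.54 (adjusted p = 3.66e-07). Against WT, 9 of the 20 were higher and 1 lower in Mut_IDR3 (45% and 5%), beside 23.2% and 20.9% of all features. In ΔIDR3 against WT 12 were higher and 2 lower (60% and 10%), beside 27.2% and 25.0%.

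Of 16 genes for mitochondrial DNA transcription, replication and RNA decay 5 were higher and 5 lower in WT against GFP (31.2% each), near the 27.7% and 27.1% of all features. TFAM, which packages mitochondrial DNA and starts its transcription, had -0.89 ± 0.06 (adjusted p = 1.4e-08), and PNPT1, an exonuclease, -0.86 ± 0.07 (adjusted p = 1.91e-07). CLPX and CLPP, the 2 parts of a matrix protease, went in opposite directions, with -0.80 (adjusted p = 5.13e-06) and 0.53 (adjusted p = 7.11e-06). Of 17 mitochondrial aminoacyl-tRNA synthetases 4 were higher and 4 lower (23.5% each), with a median of -0.04, and these shares too were near the background.

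Among 10 tested nuclear regulators of mitochondrial genes 4 were higher and 1 lower in WT against GFP, 40% and 10% beside 27.7% and 27.1% of all features. GABPA, 1 of the ETS factors that can bind CCGGAAG, fell from 36.3 to 14.8 CPM. Its log2 fold change was -1.29 ± 0.14 (adjusted p = 1.8e-06). Whether GABPA binds the member promoters was not tested. MYC, a transcription factor of growth and ribosome genes, rose from 21.8 to 39.3 CPM, a log2 change of 0.85 ± 0.08 (adjusted p = 3.11e-07). ESRRA, a nuclear receptor of oxidative metabolism, rose by 0.46 (adjusted p = 0.000228) and the coactivator PPRC1 by 0.40 (adjusted p = 0.000535). In Mut_IDR3 MYC had -0.13 ± 0.08 and GABPA -0.37 ± 0.13 against GFP, and neither passed (adjusted p = 0.269 and 0.0615). In ΔIDR3 MYC had 0.08 ± 0.08 (adjusted p = 0.477) and GABPA -0.39 ± 0.13 (adjusted p = 0.0387).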

How the data were processed

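Counts per gene were deposited by the authors as 1 table for all 12 libraries, with whole numbers that were not normalized. The submitters' processing notes name Trim Galore, HISAT2, StringTie and the human build GRCh38 (hg38), without versions, and the sources used here do not state the counting settings or the use of strand. Per the labels' protocols, RNA was extracted with a Qiagen kit and libraries were made with a SMARTER mRNA kit.

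Counts were analysed with edgeR 4.0.16 in R 4.3.3. Features were kept by filterByExpr, TMM scaling was applied, and all 12 libraries in 4 groups entered 1 quasi-likelihood fit (8 residual degrees of freedom). P-values were adjusted by Benjamini-Hochberg over 14792 features and called under 0.05. For single genes, an exact permutation test of 3 against 3 could not go below 0.1. Levels are counts per 1000000 (CPM) of the scaled library. Position, length and GC content came from GENCODE 29, with 1 transcript per gene, and promoter windows from RefSeq (GRCh38.p14). The GC trend was removed per library over 20 bins of GC content. The steps were tested on simulated data. Replicates differed from each other by more than counting noise, and same-numbered libraries did not deviate together, so no pairing was used.

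Named genes were, per comparison, up to 6 called rises and 6 called falls without overlap, set landmarks, and the 5 highest and 5 lowest levels per length, and up to 4 called genes with the lowest adjusted p per list. A few others were picked for what they showed: MRPS11 for its position, and MRPL19, MRPL22, MRPS36 and the printed promoters after their values were seen. Members and lists were chosen with earlier results of these data known. Alternatives were other scalings, no filter, DESeq2 1.42.0, 2 groups only, a replicate block, a stricter threshold, removal of the GC trend and each library left out.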

Additional observations from a re-analysis of the deposited data

How the results depend on the processing

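Replicate numbers were not shown to pair libraries: correlations of deviations ran from -0.068 to 0.076 for the same number and from -0.078 to 0.090 for other numbers. With a replicate block 30 and 13 members were called higher and lower in WT against GFP, 12 and 2 in Mut_IDR3 against GFP, 10 and 1 in ΔIDR3 against GFP, 9 and 18 in Mut_IDR3 against WT, 19 and 22 in ΔIDR3 against WT, and 1 and 1 in Mut_IDR3 against ΔIDR3. Of 107 called results on the 44 named members, DESeq2 kept 107, median-ratio scaling 103, no filter 100, upper-quartile scaling and the block 98, 2 groups only 102, and an adjusted p under 0.01 79. None of these turned a sign.

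Other counts that moved were 5 lower in Mut_IDR3 against GFP, 19 higher in ΔIDR3 against GFP, and 2 higher and 8 lower in Mut_IDR3 against ΔIDR3 with only the 2 groups. In Mut_IDR3 against ΔIDR3, 1 was lower with median-ratio or upper-quartile scaling. At an adjusted p under 0.01, Mut_IDR3 against GFP had 8 higher and 1 lower, ΔIDR3 against GFP 0 lower, ΔIDR3 against WT 15 lower, and Mut_IDR3 against ΔIDR3 0 higher and 0 lower. With each library left out, the lowest and highest counts of members higher and lower were 27 to 36 and 10 to 18 in WT against GFP, 8 to 11 and 1 to 3 in Mut_IDR3 against GFP, 6 to 12 and 0 to 3 in ΔIDR3 against GFP, 7 to 18 and 14 to 24 in Mut_IDR3 against WT, 15 to 22 and 17 to 25 in ΔIDR3 against WT, and 1 to 1 and 0 to 1 in Mut_IDR3 against ΔIDR3. The median log2 fold change ranged from 0.10 to 0.17, 0.01 to 0.05, 0.05 to 0.11, -0.10 to -0.03, -0.09 to 0.01 and -0.07 to -0.01 in that order.

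With the GC trend removed 47 of the 107 calls were kept, 39 lost and 21 turned sign. The list of turned results below holds 24. Of these, MRPS18B (WT against GFP), MRPL19 (Mut_IDR3 against WT) and MRPS18C (ΔIDR3 against WT) were called only with the trend removed. WT against GFP then had 20 higher and a median of 0.07, also with the block, Mut_IDR3 against GFP 3 higher and 1 lower (2 and 0 with the block), and Mut_IDR3 against ΔIDR3 5 lower. The log2 fold changes that turned in WT against GFP were, without and with the block, MRPL12 -0.015 and -0.014, MRPL19 0.29 and 0.29, MRPL20 -0.016 and -0.016, MRPL3 0.083 and 0.083, MRPL35 0.19 and 0.18, MRPL50 0.025 and 0.022, MRPS10 0.012 and 0.012, MRPS12 -0.19 and -0.19, MRPS18B -0.15 and -0.15, MRPS2 -0.094 and -0.094, MRPS31 0.13 and 0.13, and MRPS34 -0.087 and -0.087. In Mut_IDR3 against GFP they were MRPL19 0.040 and 0.040, and MRPL42 0.016 and 0.017. In Mut_IDR3 against WT they were MRPL12 0.029 and 0.028, MRPL19 -0.25 and -0.25, MRPL35 -0.0032 without the block, and MRPS31 -0.011 and -0.015. In ΔIDR3 against WT they were MRPL12 0.061 and 0.061, MRPL19 -0.14 and -0.14, MRPL42 -0.067 and -0.067, MRPS10 -0.11 and -0.11, MRPS18C -0.43 and -0.43, and MRPS34 0.059 and 0.060. The alternative itself subtracts the GC trend, and apart from this the cause was not tested.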
